A study of Mus musculus with 8 samples.

Results

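Chronic experimental autoimmune encephalomyelitis (EAE) was compared with the naive state in mice deficient for connexin 47 (Cx47), using 2 of the 8 single-colour Agilent arrays of the study. The chronic array carried RNA of Cx47 deficient mice in the chronic phase of EAE, and the naive array carried RNA of Cx47 deficient mice without EAE. Both came from C57Bl/6J mice, with the source given as astrocyte and the tissue as spinal cord. The study's title describes the deletion as conditional and specific to oligodendroglia, and the sample titles write the deficient mice as icKO. Which promoter drove the deletion, how many mice an array represents and how the cells were isolated were not given in the sources used here. The other 6 arrays, 1 per group, covered Cx47 deficient mice with EAE or with EAE and iguratimod (IGU), and the wild type (titles FL or F/F) naive, with EAE, with EAE and IGU, and in chronic EAE. The titles of the 2 chronic arrays, and no others, also carry the label p50, whose meaning was not given. With 1 array a side no test was possible, so the differences below describe these 2 arrays and have no replicate check. Their small number limits precision throughout.

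EAE is an immune-mediated disease of the mouse central nervous system that is used to model multiple sclerosis. T cells that recognise myelin enter the tissue, and glia and infiltrating cells respond to interferon-gamma with genes for antigen presentation, guanylate-binding GTPases and chemokines. Cx47 forms gap junction channels in oligodendrocytes, mainly towards astrocytes, whose own channels are built from connexin 43 (Gja1) and connexin 30 (Gjb6).

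Signals are given on a log2 scale after subtraction of each array's percentile 75, so 0 is the level that 75% of spots stay under, and a difference of 1 is 2-fold. Of 56605 probes that were not controls, 53814 had an autosomal position, and 38446 of these were well above background on the chronic array, the naive array or both. They stood for 25008 genes, of which 22237 were well above background on both arrays, 2513 on the chronic array alone and 258 on the naive array alone. Each gene was read from its kept probe of highest mean signal. Where an array did not detect a probe, its value was raised to the lowest signal among that array's detected probes (-5.47 naive, -5.80 chronic), and the difference is then a bound, written "at least". In bulk RNA of this kind, fewer cells of a type and less RNA per cell cannot be told apart.

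The labelled cell type was checked against marker lists. All 18 astrocyte markers were well above background on both arrays, but so were 14 of 15 general neuronal markers, 14 of 16 markers of myelin and mature oligodendrocytes and 11 of 12 of homeostatic microglia. The neuronal genes included Snap25, a synaptic vesicle fusion protein (5.89 naive, 6.03 chronic), and Rbfox3, the antigen known as NeuN (5.26 and 5.12). The spinal cord position genes of the Hox clusters were detected too, 14 of 14 on both arrays. So were 9 of 9 cerebellar neuron markers, among them the Purkinje cell gene Pcp2 (6.18 and 5.98) and the granule cell gene Gabra6 (3.97 and 3.07). The RNA on both arrays thus held transcripts of many cell types besides astrocytes, and genes that mark regions outside the spinal cord.

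The chronic and naive arrays lay on different slides, so slide and disease phase cannot be told apart. On the slide of the 2 chronic arrays the median local background was 57 and 58, the spike-in slope 0.762 to 0.764 and the spike-in R squared 0.846 to 0.848. On the slide of the other 6 arrays these were 73 to 82, 0.920 to 1.07 and 0.964 to 0.988. The share of spots well above background was 65.8% on the naive and 71.3% on the chronic Cx47-deficient array, with no saturated spots on either.

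In chronic EAE 2184 of 25008 genes (8.73%) were at least 2-fold higher than in the naive Cx47-deficient mice and 511 (2.04%) at least 2-fold lower. A gene detected on the chronic array alone could only come out higher, and 532 of the higher genes were of this kind. Among the 22237 genes detected on both arrays, 1652 (7.43%) were 2-fold higher and 456 (2.05%) 2-fold lower. The median difference was 0.05 over all genes and 0.02 over those detected on both arrays.

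The difference moved with signal. Its median was 0.32 in the dimmest sixth of genes detected on both arrays and -0.09 in the brightest. In the wild type it went from 0.62 to -0.50. Cyclic loess scaling, which levels such a trend, left 0.14 and 0.02 in the Cx47-deficient pair. Of the 1652 genes that were 2-fold higher, 643 lay in the dimmest sixth and 40 in the brightest, each of 3706 genes. Counts of 2-fold higher members in the lists below, many of them dim, were not tested against genes of like signal. Whether the trend is of the slide or of the tissue was not tested.

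**Figure D1:**
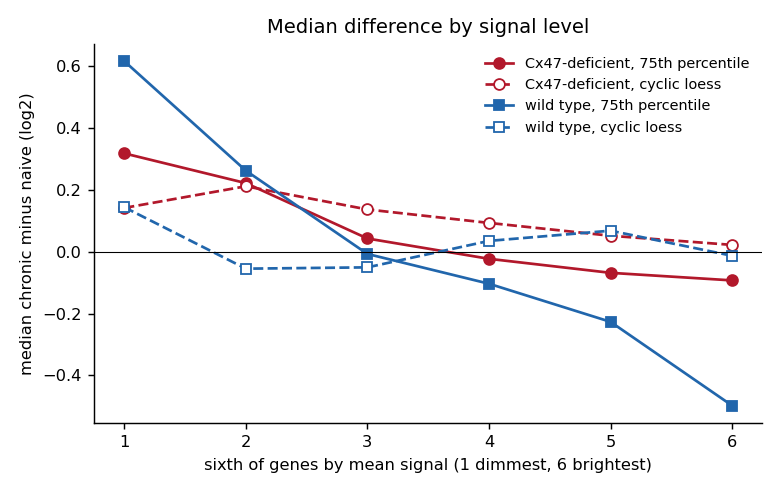
Median chronic minus naive difference (log2) in each sixth of genes by mean signal, from the dimmest (1) to the brightest (6). Red circles are the Cx47-deficient pair, blue squares the wild-type pair, solid lines the percentile 75 scaling and dashed lines cyclic loess. The solid red line goes from 0.32 to -0.09 and the solid blue line from 0.62 to -0.50.

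The genes of MHC class II presentation, through which cells show peptides to CD4 T cells, were mostly higher in chronic EAE. Of 7 genes, all detected on both arrays, 4 were 2-fold higher and 1 was 2-fold lower, with a median difference of 1.62 against 0.02 over all genes detected on both arrays. H2-Aa, the alpha chain of the class II molecule I-A, stood at -4.64 on the naive and -2.45 on the chronic array, a difference of 2.19 or 4.57-fold. Its partner chain H2-Ab1 stood at -1.75 and 0.63, a difference of 2.37, and its 4 probes gave 1.98 to 2.49. H2-Eb1, a chain of the class II family, stood at -1.18 and 0.97, a difference of 2.15.

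The invariant chain Cd74, which escorts class II molecules, was at -0.87 naive and 0.75 chronic, a difference of 1.62. H2-DMb1, a subunit of the peptide-loading factor, was at -2.05 and -1.36, and H2-DMa, the other subunit, at -1.32 on both. For Ciita, the transactivator of class II genes and the member counted as lower, the probes disagreed. The brightest stood at -0.68 naive and -1.91 chronic, and the other detected probe at -4.38 and -3.62. In the wild type they differed by -2.14 and 1.03, so the direction of Ciita turned with the probe in both genotypes. On the EAE array of the Cx47-deficient mice, the chains stood far higher: H2-Aa lay 6.55, H2-Ab1 6.60 and Cd74 5.09 above the same naive array.

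The start regions of class II genes are shown because the promoters of this family share regulatory boxes, one of which, the Y box, holds the letters CCAAT. The 250 bases before the start of H2-Aa (chr17:34287824-34288073, minus strand) and of H2-Eb1 (chr17:34305617-34305866, plus strand) are from RefSeq on GRCm38.p6, with CCAAT on either strand in capitals.
H2-Aa: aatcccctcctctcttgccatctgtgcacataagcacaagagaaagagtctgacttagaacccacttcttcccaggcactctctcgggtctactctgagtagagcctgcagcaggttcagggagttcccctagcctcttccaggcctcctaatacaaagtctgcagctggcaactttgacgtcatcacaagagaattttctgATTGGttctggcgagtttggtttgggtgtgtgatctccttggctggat
H2-Eb1: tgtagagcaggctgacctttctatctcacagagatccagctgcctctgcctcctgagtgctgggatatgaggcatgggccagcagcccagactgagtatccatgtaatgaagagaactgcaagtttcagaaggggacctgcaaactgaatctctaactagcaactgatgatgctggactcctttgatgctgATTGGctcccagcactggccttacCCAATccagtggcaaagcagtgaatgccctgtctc
The letters begin 48 bases before the start of H2-Aa, and 59 and 35 bases before that of H2-Eb1. All 4 class II genes with an entry (H2-Aa, H2-DMa, H2-DMb1 and H2-Eb1) held CCAAT in this window, as did 37.5% of the 27025 genes in the table. Among these 4, H2-Aa and H2-Eb1 were over 4-fold higher on the chronic array and H2-DMa stood at the same level on both arrays. A match describes the letters only.

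The interferon-gamma inducible GTPases, which act against microbes inside cells, were higher in chronic EAE by a median of 0.90 over the 9 of 11 genes detected on both arrays. All 9 lay above 0, and 4 were 2-fold higher. Iigp1 stood at -4.41 naive and -1.32 chronic, a difference of 3.09 or 8.51-fold, while its other probe gave 0.85. Gbp2, a guanylate-binding protein, stood at -3.81 and -2.09, and Irgm1, a regulator of this GTPase family, at -1.76 and -0.38, with 4 probes that gave 0.05 to 2.07. Gbp3 was at -3.05 and -1.69. Gbp4 was not well above background on the naive array and stood at -3.50 on the chronic array, at least 3.91-fold higher. The same 9 genes had a median difference of 0.01 in the wild type, with Iigp1 at 1.56, Gbp2 at 0.81, Gbp3 at -0.75 and Irgm1 at -0.07. The order of the genotypes turned with the probe. The other Iigp1 probe was not well above background on the wild-type naive array and stood at -3.41 on the wild-type chronic array, against -4.66 and -3.81. The Irgm1 probe that gave 2.07 was likewise dim on the wild-type naive array, and stood at -2.72 on the wild-type chronic array, against -4.75 and -2.68. Further Irgm1 probes kept the order, with 0.84 against -0.12 and 0.05 against -0.42.

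The 250 bases before the starts of Gbp2 (chr3:142620413-142620662, plus strand) and Irgm1 (chr11:48871421-48871670, minus strand) are shown because this family is a textbook target of interferon-responsive elements. Capitals mark GAAANNGAAA on either strand, the core letters of such an element.
Gbp2: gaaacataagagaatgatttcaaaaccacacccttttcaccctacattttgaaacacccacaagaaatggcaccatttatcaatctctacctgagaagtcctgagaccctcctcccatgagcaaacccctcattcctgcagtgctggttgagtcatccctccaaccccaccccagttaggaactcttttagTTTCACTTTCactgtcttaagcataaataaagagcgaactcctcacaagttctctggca
Irgm1: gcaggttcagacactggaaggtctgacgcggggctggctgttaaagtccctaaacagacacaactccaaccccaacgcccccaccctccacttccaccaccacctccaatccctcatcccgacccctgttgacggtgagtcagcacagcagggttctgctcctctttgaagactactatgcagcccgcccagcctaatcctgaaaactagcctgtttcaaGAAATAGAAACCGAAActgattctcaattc
The match begins 59 bases before the start of Gbp2, and Irgm1 holds 2 overlapping matches, from 30 and 24 bases before its start. All 8 GTPase genes with an entry (of 11) held these letters, against 3.46% of all genes in the table. The second motif searched, TTCNNNGAA, was in 5 of the 8 and in 8.13% of all genes. Of the class II genes, 0 of 4 held GAAANNGAAA in this window, and of 13 chemokine genes 2 held it, Ccl19 and Cxcl10. No match says only that the letters are not in these 250 bases.

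MHC class I and immunoproteasome genes, which make and load peptides for CD8 T cells, had a median difference of 0.71 over 11 genes detected on both arrays. Of these 10 lay above 0 and 3 were 2-fold higher. H2-K1, a class I heavy chain, stood at 1.90 naive and 2.92 chronic (its other probe differed by 0.51), the peptide transporter Tap1 at -3.39 and -2.19, and the immunoproteasome subunit Psmb9 at -2.72 and -1.32. B2m, the light chain shared by class I molecules, was at 2.88 and 3.75, a difference of 0.87, and its other probe gave 1.54. Nlrc5, the class I counterpart of Ciita, was not well above background on the naive array and was at least 4.23-fold higher on the chronic array (-3.38). The 11 genes had a median of -0.01 in the wild type. There the 2 probes of B2m gave -0.04 and 3.92, so for B2m the order of the genotypes turned with the probe.

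Interferon-stimulated antiviral genes showed the same kind of shift: a median of 0.76 over 15 genes detected on both arrays, 14 of them above 0 and 5 of them 2-fold higher. Isg15, a ubiquitin-like modifier, stood at -1.27 and 0.38, a difference of 1.64. Oas1a, a sensor of double-stranded RNA, stood at -3.80 and -2.12. Irf7, a transcription factor of the interferon response, was at -2.09 and -0.93, and Rsad2, the antiviral enzyme viperin, at -5.25 and -3.77. Ddx58, the RNA sensor RIG-I, was the 1 gene below 0, by 0.09, and its other probe gave 0.21. The same 15 genes had a median of 0.01 in the wild type, where Isg15 differed by 1.03 and Irf7 by 0.25.

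**Figure D2:**
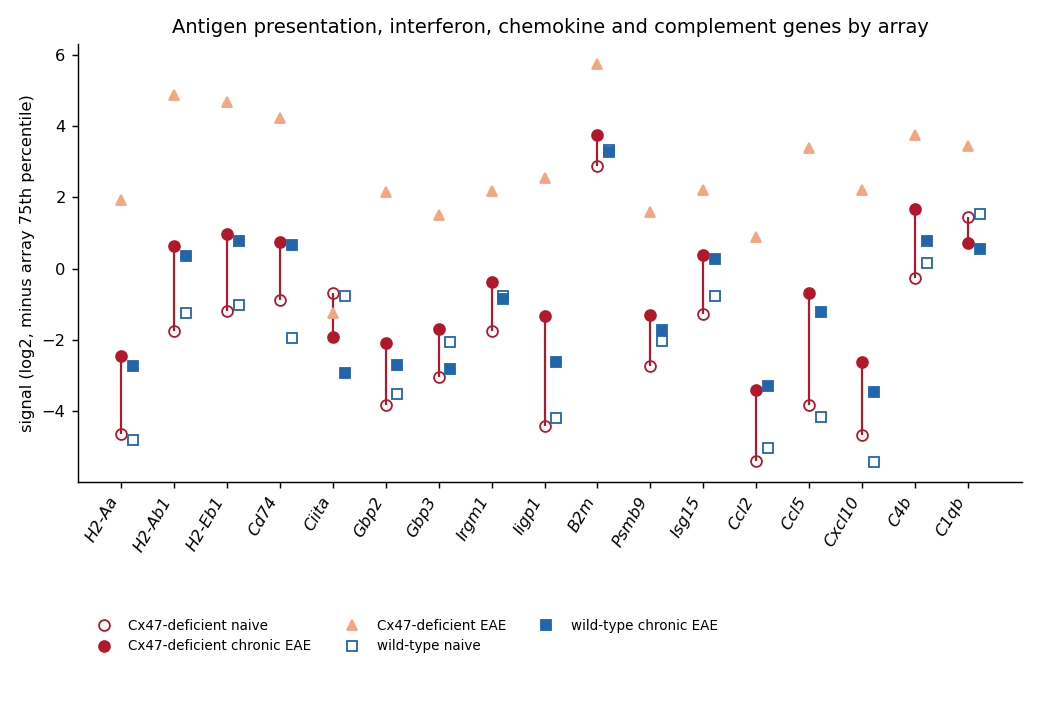
Signal (log2 after subtraction of each array's percentile 75) of antigen presentation, interferon, chemokine and complement genes on 5 arrays, 1 point per array. Circles are Cx47-deficient naive (open) and chronic EAE (filled), joined by a line, triangles are Cx47-deficient EAE, and squares are wild-type naive (open) and chronic EAE (filled). Each gene is drawn from its brightest probe. All but Ciita and C1qb lie higher on the chronic than on the naive Cx47-deficient array, and the EAE array lies above both for all but Ciita, whose other detected probe lies higher on the chronic array (-4.38 and -3.62) and highest on the EAE array (-1.13).

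Chemokines, the secreted attractants of leukocytes, were among the groups with the largest differences. Of 18 genes 14 were kept and 11 were detected on both arrays, and 7 of these 11 were 2-fold higher and 0 lower, with a median of 1.21. Ccl5, which attracts T cells, stood at -3.84 naive and -0.69 chronic, a difference of 3.15 or 8.88-fold. Cxcl10, a chemokine induced by interferon, was at -4.67 and -2.63, and the monocyte attractant Ccl2 at -5.40 and -3.41. Cxcl12, which is made by stromal and endothelial cells, was at -0.92 and 0.67 by its brightest probe, while its other probe was nearly level on both arrays.

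A further 3 chemokines were detected on the chronic array alone: Cxcl13, which attracts B cells (at least 3.65-fold higher), Ccl8 (at least 4.03-fold) and Cxcl9 (a log2 difference of at least 1.23). Ccl6 (-1.23 and -1.58) was the only detected chemokine below its naive level, and Ccl19, a ligand of Ccr7, stood at -3.53 and -3.49. In the wild type Ccl5 differed by 2.94 and Ccl2 by 1.72, close to the Cx47-deficient pair, whereas Cxcl12 lay lower by 1.08. The Cx47-deficient EAE array had Ccl5 7.22, Cxcl10 6.87 and Ccl2 6.30 above the same naive array.

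Cytokine genes gave little signal. Of 11 proinflammatory cytokines 4 were kept, and none was 2-fold higher or lower. Tnf stood at -3.00 and -2.79, Il18 at 1.34 and 1.17, and Il1b was detected on the chronic array alone (-4.96), for a difference of at least 0.50. Neither probe of Il6 was well above background on either array. Of 12 genes of NF-kB subunits and feedback, 1 was 2-fold higher: Bcl3, an atypical inhibitor of NF-kB, at -4.35 and -3.03. That share is near the 8.73% of all genes. The inhibitor Nfkbia stood at 1.43 and 1.74, and the median of the 11 members detected on both arrays was -0.01.

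Of the complement genes, C4b, a component that acts after recognition, stood at -0.26 naive and 1.67 chronic, a difference of 1.93 or 3.81-fold, and the protease C1ra at -4.29 and -3.26. The central component C3 stood at -1.06 and -0.03 by its brightest probe, a difference of 1.02, and its other probe gave 0.30. The recognition subunits of C1q, made in the brain by microglia, lay lower without reaching 2-fold: C1qb at 1.45 and 0.70, C1qa at 1.85 and 1.43, and C1qc at 2.59 and 2.24. Over the 10 members detected on both arrays, 3 were 2-fold higher and 0 lower, and the median was 0.27. The wild type gave C4b 0.61, C3 0.30 and C1qb -0.98.

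Of 11 homeostatic microglial genes 8 lay below their naive level, with a median of -0.58. Fcrls, a scavenger-receptor family member, was the 1 gene 2-fold lower (-0.04 and -1.11). Tmem119, a surface marker of microglia, stood at 0.88 and 0.22, the colony stimulating factor receptor Csf1r at 4.37 and 3.68, and the fractalkine receptor Cx3cr1 at 3.07 and 2.46. Sall1, a microglial transcription factor, was at -1.80 and -1.36.

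Of 12 genes of disease-associated microglia detected on both arrays, 4 were 2-fold higher and 0 lower. The lectin receptor Clec7a stood at -2.91 naive and -1.17 chronic, the lysosomal glycoprotein Gpnmb at -5.20 and -3.61, the galectin Lgals3 at -1.85 and -0.54, and the secreted phosphoprotein Spp1 at 0.40 and 1.57. The integrin Itgax and the cystatin Cst7 were detected on the chronic array alone, at least 5.28-fold and 8.03-fold higher. Other members did not differ by 2-fold, among them Apoe (6.53 and 6.15) and Ctsd (4.46 and 4.04), and the median of the 12 was -0.08. With Itgax and Cst7 counted at their bounds, the median of the 14 was 0.48, so its sign turned with the filter.

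Markers of infiltrating leukocytes were higher for part of each list. Of 11 monocyte and macrophage genes detected on both arrays 4 were 2-fold higher and 0 lower: Ly6c2, a surface protein of inflammatory monocytes (-0.93 and 1.30), the matrix protein Fn1 (-1.45 and 0.37), the lysozyme Lyz2 (0.91 and 2.42, with 0.15 by its other probe) and the chitinase-like Chil3 (-5.07 and -3.70). The lysosomal protein Cd68 stood at 0.30 and 0.28, and its 3 probes gave -1.24 to -0.02. Mrc1 (-3.36 and -3.46), Cd163 (-4.60 and -5.00) and Arg1 (-4.73 and -4.94) also lay below their naive level. Ly6c2 and the endothelial Ly6c1 are near-identical neighbours whose probes may share signal, and Ly6c1 stood at -0.57 and 1.40.

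Among neutrophil genes, the calcium-binding pair S100a8 (-2.37 and -0.84) and S100a9 (-0.62 and 0.78) were 2-fold higher, while the protease Elane stood at -2.06 and -2.26. In all, 4 of the 8 detected on both arrays were 2-fold higher, and Mmp9 was detected on the naive array alone. Of 15 T and NK cell genes, 11 were kept, but only 5 were detected on both arrays, of which 1, the coreceptor chain Cd8b1 (-4.72 and -3.48), was 2-fold higher. Cd3d, a chain of the T cell receptor complex, was detected on the chronic array alone at -3.23, at least 4.71-fold higher. Cd3e stood at -1.96 and -1.47, while the coreceptor Cd4 lay below its naive level (-0.37 and -1.13).

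Of 10 B and plasma cell genes 6 were detected on both arrays, and 3 of these were 2-fold higher and 0 lower. Jchain, which joins immunoglobulin units in plasma cells, stood at -5.22 on the naive and -1.94 on the chronic array, a difference of 3.27 or 9.68-fold. The B cell surface protein Ms4a1 (CD20) stood at -3.37 and -1.07 and the receptor subunit Cd79b at -4.03 and -2.24. Pax5, a transcription factor of the B lineage, was near the bottom of the scale on both arrays (-4.35 and -4.15). In the wild-type pair Jchain differed by 3.06, Ms4a1 by 3.10 and Cd79b by -0.43. On the Cx47-deficient EAE array Jchain lay 2.24 above and Ms4a1 0.19 below the same naive array. Jchain, and Ms4a1 by its brightest probe, thus stood higher on both chronic arrays than on that EAE array. The other kept probe of Ms4a1 went the other way. It stood at -3.35 on that EAE array, and at -4.25 (Cx47-deficient) and -4.12 (wild type) on the chronic arrays. Cd79b too was higher on that EAE array (-1.92) than on the chronic arrays (-2.24 and -4.30).

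Astrocyte identity genes lay slightly lower in chronic EAE. Of 18 genes detected on both arrays 16 were below their naive level by their brightest probes, 0 reached 2-fold, and the median was -0.48. Other probes of Fgfr3 (-1.57), Glul (-1.51), Gjb6 (-1.51) and Gpc5 (-1.25) were 2-fold lower, while another probe of Slc1a3 gave 1.00. Gfap, the intermediate filament of astrocytes, stood at 2.41 naive and 1.53 chronic, and its other probe gave a difference of -1.10. The calcium-binding S100b stood at 6.43 and 5.71, the folate enzyme Aldh1l1 at 3.21 and 2.55, the glutamate transporter Slc1a2 at 2.18 and 1.53, and the water channel Aqp4 at 2.19 and 2.09. The glycolytic enzyme Aldoc was at 7.73 and 7.75. The wild-type pair went further: a median of -1.36, with 13 of the 18 genes 2-fold lower. For all 18 the wild-type difference lay below the Cx47-deficient one by the brightest probe. This order turned with the probe for some genes, among them Gja1, where another probe gave 0.17 in the Cx47-deficient pair and 1.79 in the wild type.

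Genes of reactive astrocytes did not move as 1 group. Of 10 pan-reactive genes 3 were 2-fold higher: Cxcl10, the lipocalin Lcn2 (-3.68 and -1.93) and the oncostatin M receptor Osmr (-4.08 and -2.55). The protease inhibitor Serpina3n stood at -1.88 and -1.78 and the filament Vim at 2.79 and 2.06. Of the A1 list, 2 of 10 were 2-fold higher, Iigp1 and Gbp2, both also counted among the GTPases. Of the A2 list, 2 of 8 were: the membrane protein Tm4sf1 (-2.12 and -0.51) and the cyclooxygenase Ptgs2 (-3.30 and -2.07). Over all genes detected on both arrays 7.43% were 2-fold higher, and in the dimmest sixth 643 of 3706 were. Such small counts do not set these lists apart from other dim genes. Lcn2 and Serpina3n lay 6.65 and 3.42 above the naive array on the Cx47-deficient EAE array, against 1.76 and 0.10 on the chronic array.

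The channel and transport genes of astrocytes followed their identity genes. Of 11 genes for glutamate, potassium and water transport 10 lay below the naive level, by a median of 0.43, and 0 reached 2-fold by the brightest probe. The potassium channel Kcnj10 stood at 4.88 and 4.03, and the GABA transporter Slc6a11 was the exception at -0.67 and -0.05. Among glial connexins Gja1 stood at 0.28 naive and -0.29 chronic, Gjb6 at 2.76 and 2.50, Gjb2 (connexin 26) at -1.44 and -1.20, and Gjc3 (connexin 29) at -0.40 and -0.71. None of these 4 differed by 2-fold by its brightest probe, but another probe of Gjb6 differed by -1.51 and another of Gjc3 by -1.01. The 4 detected probes of Gja1 gave -0.92 to 0.17. Gja1 differed by -1.38 and Gjb6 by -1.17 in the wild type.

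Genes of myelin and mature oligodendrocytes were the list with the lowest median of the 38 in the Cx47-deficient pair, at -1.33. Of 14 genes detected on both arrays, 9 were 2-fold lower and 0 higher. Mobp, a structural myelin protein, stood at 4.12 naive and 2.31 chronic, a difference of -1.82. The myelin surface glycoprotein Mog stood at 1.36 and -0.55, the paranodal loop protein Opalin at -0.34 and -2.00, the enzyme Cnp at 4.59 and 2.97, and the tight junction protein Cldn11 at 3.84 and 2.50.

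For Mbp, a main protein of compact myelin, the 3 probes disagreed. The brightest stood at 5.66 and 3.73, a difference of -1.92, and the others differed by -2.81 and -0.19. Mag (4.22 and 3.15) was 2-fold lower by its brightest probe, while its other probe differed by 1.27. The second probes of Cnp and Opalin differed by -0.49 and -0.78, under 2-fold. Mal (5.23 and 4.48), Aspa (1.09 and 0.14, with 0.995 by its other probe) and Trf (6.19 and 5.63) lay lower by less than 2-fold. Ermn (5.24 and 6.19) and the transcription factor Myrf (-2.25 and -1.43) lay above their naive level, which they also did in the wild type, by 1.62 and 1.18. The wild-type median over the 14 genes was -1.87, with 12 genes 2-fold lower, and 11 of the 14 lay further down there than in the Cx47-deficient pair. On the Cx47-deficient EAE array Mobp lay 0.99 and Mbp 0.46 below the naive array.

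Of 10 genes of oligodendrocyte precursors and the lineage, 1 was 2-fold lower: Sox10, a transcription factor of the whole lineage (1.90 and 0.69). Olig1 stood at 2.84 and 1.97 and Olig2 at -0.52 and -1.13, while Pdgfra, a receptor on precursors, was at 0.03 and -0.09. Cholesterol synthesis, a supply route for myelin membrane, had 13 of 15 genes below the naive level with a median of -0.44. The mevalonate decarboxylase Mvd was the only 1 at 2-fold (0.28 and -0.98), and the demethylase Cyp51 followed at 1.40 and 0.42, with -1.35 by its other probe. General neuronal genes had a median of -0.07 with 0 of 14 at 2-fold, and the neurofilament Nefl (5.57 and 4.79) lay lowest among them.

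Endothelial genes, which mark blood vessels, were higher in the Cx47-deficient pair. Of 14 detected on both arrays 9 were 2-fold higher and 0 lower, with a median of 1.41. The clotting factor Vwf stood at -3.97 naive and -1.62 chronic, a difference of 2.35 or 5.09-fold, and its other probe gave 0.49. The transporter Slco1a4 stood at -3.82 and -1.49, the VEGF receptor Flt1 at -1.29 and 0.87, the tight junction protein Cldn5 at -1.90 and -0.17, and the efflux pump Abcb1a at -3.16 and -1.36. The adhesion molecule Pecam1 (-3.85 and -3.97) and the lipid transporter Mfsd2a (0.50 and 0.20) did not follow.

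The same 14 genes had a median of -0.43 in the wild type. By their brightest probes, all 14 lay higher in the Cx47-deficient than in the wild-type difference. The other detected Vwf probe turned this order. It was not well above background on the wild-type naive array and stood at -3.92 on the wild-type chronic array, against -4.94 and -4.46. The naive arrays differed by the brightest probes: Cldn5 stood at -1.90 in the Cx47-deficient and -0.64 in the wild-type naive mice, Vwf at -3.97 and -2.77, and Slco1a4 at -3.82 and -2.29. On the chronic arrays the Cx47-deficient values were the higher, with Cldn5 at -0.17 against -1.45 and Slco1a4 at -1.49 against -2.69. Of 12 genes of pericytes, fibroblasts and matrix, 1 was 2-fold higher (Postn, -4.84 and -3.71), a share near the 8.73% of all genes. The smooth muscle actin Acta2 was counted as lower from its brightest probe (2.28 and 0.93), but its other detected probe was 2-fold higher (-4.51 and -3.31).

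**Figure D3:**
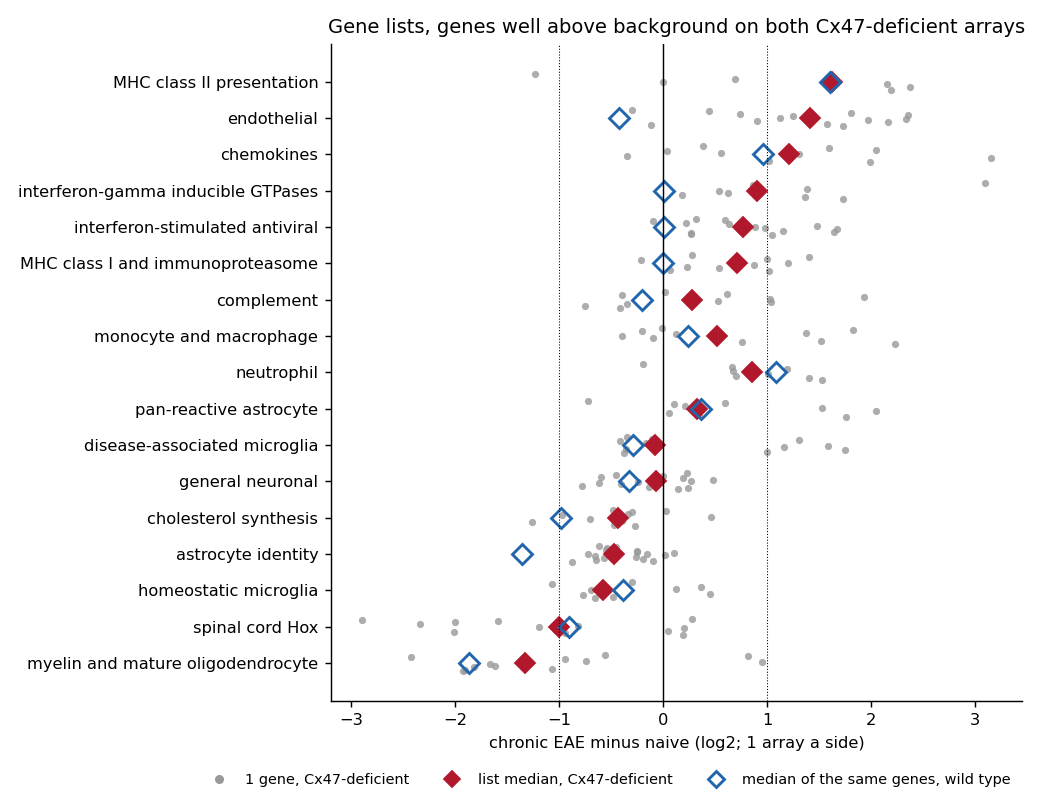
Chronic EAE minus naive (log2) for genes detected on both Cx47-deficient arrays in 17 gene lists. Grey points are genes, red diamonds the list medians in the Cx47-deficient pair, and open blue diamonds the medians of the same genes in the wild-type pair, with dotted lines at 2-fold. The red diamonds go from 1.62 for MHC class II to -1.33 for myelin, and for endothelial genes red (1.41) and blue (-0.43) lie on opposite sides of 0.

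Genes that mark position along the body axis or brain regions differed as well. Of 14 Hox genes expressed in the spinal cord, all detected on both arrays, 7 were 2-fold lower and 0 higher, with a median of -0.999. Hoxd9 stood at -2.45 naive and -5.35 chronic, a difference of -2.89, Hoxc9 at -1.30 and -3.64, Hoxa9 at -2.75 and -4.76, and Hoxc10 at -2.47 and -4.47. The 4 that lay above their naive level were Hoxa5 (-2.19 and -2.00), Hoxb5 (-0.57 and -0.52), Hoxb8 (-0.02 and 0.18) and Hoxd10 (-5.44 and -5.16). The wild-type median over the 14 genes was close, at -0.91, with 7 genes 2-fold lower and 0 higher. Single members differed: in the wild type Hoxa5 and Hoxb5 were 2.89 and 3.08 lower, while Hoxc10 differed by -0.38. On the Cx47-deficient EAE array the median difference of the 14 from the same naive array was -0.76.

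Of 10 genes enriched in striatal neurons 8 were detected on both arrays. Of these 8, 2 were 2-fold higher in the Cx47-deficient pair, against 7.43% of all genes detected on both arrays. Their median was 0.48, and 3 lay below 0, among them Penk (4.80 and 4.47). The same 8 genes had a median of 0.03 in the wild type. The adenosine receptor Adora2a was not well above background on the naive array and stood at -1.80 on the chronic array, at least 12.7-fold higher. Detected on the chronic array alone, it could only come out higher. In the wild type Adora2a stood at 0.46 naive and 1.36 chronic, both above the Cx47-deficient chronic value. The dopamine receptor Drd1 stood at -1.54 and -0.41 in the Cx47-deficient pair. Of 9 cerebellar neuron genes the granule cell gene Cbln3 was 2-fold lower (0.66 and -1.21), and the median was -0.65. What share of the other differences goes with the region markers was not tested.

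The largest increases include genes that no list held. The rule took genes at least 2-fold in the same direction under 4 processings, which 307 higher and 151 lower genes met, and named 15 on each side. Ms4a15, a membrane protein of the CD20 family, was not well above background on the naive array and stood at 1.05 on the chronic array, at least 91.7-fold higher. S100a5, a calcium-binding protein of olfactory neurons, was likewise detected on the chronic array alone (-0.53, at least 30.5-fold). Shisa3, a regulator of Wnt and FGF receptors, stood at -5.11 and -0.52, a difference of 4.60, and Cdhr1, a cadherin of photoreceptors and olfactory bulb neurons, at -2.77 and 1.09.

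Sp8, a transcription factor of olfactory bulb interneurons, stood at -3.62 and 0.02. Tbx21, known from T helper cells and from projection neurons of the olfactory bulb, was detected on the chronic array alone (-1.68, at least 13.8-fold), as was Dlx5 (-2.11, at least 10.2-fold). These genes were not high in chronic EAE only: on the 4 arrays of EAE with or without IGU, Cdhr1 stood between 0.87 and 2.16, Sp8 between 0.35 and 1.22, and Ms4a15 between 0.61 and 1.77. The naive wild-type array was low too, with Cdhr1 at -2.17, Sp8 at -2.62 and Ms4a15 not well above background. The naive arrays of both genotypes therefore stood apart from the other 6 for Cdhr1, Sp8 and Ms4a15.

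The remaining large increases were in Adora2a, Jchain and Ccl5, described above, and in Adamts19, Chrna10, 5430431A17Rik, Col24a1 and 3300005D01Rik. 5430431A17Rik stood at 0.83 naive and 4.16 chronic, and in the wild type at -0.75 and 3.90, while the 4 arrays of EAE with or without IGU gave -2.74 to 0.04. Its 2 highest values were those of the second slide. 3300005D01Rik was detected on the 2 chronic arrays alone, at -2.26 in the Cx47-deficient and -5.46 in the wild-type mice.

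The largest decrease was that of Chchd4, a factor for protein import into mitochondria, at 1.37 naive and -5.25 chronic, a difference of -6.62. On the other 6 arrays it stood between 1.31 and 1.61, so the low value was that of 1 probe on 1 array. Among the next were Hoxd9, Olfr1341 (-0.85 and -3.45), Hoxc9, Cabp7 (-2.73 and -5.01) and Gpr37l1, a receptor of astrocytes and oligodendrocyte precursors (2.85 and 0.58). A further 8, Uck1, Fam13c, Tspan9, 4932412D23Rik, Gstm6, Gm9257, Elmo2 and Nkx2-9, differed by -2.25 to -2.03. For Fam13c the 5 probes disagreed, from -2.24 to 1.01, and the other probes of 4932412D23Rik and Gstm6 gave -0.46 and -0.18. Over all genes with more than 1 probe detected on both arrays, 51.5% of 7669 had the same sign in each probe, and of the 332 with a 2-fold difference 64.8%.

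**Figure D4:**
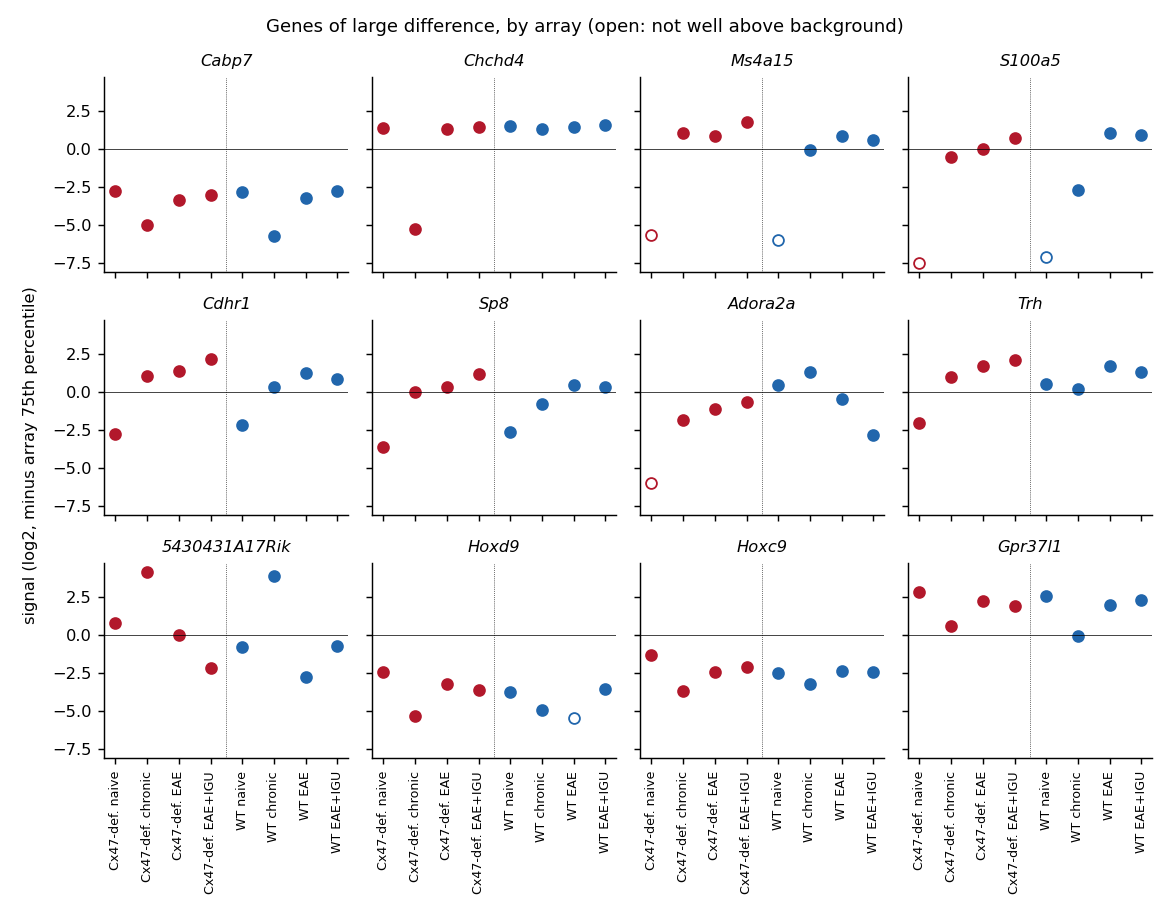
Signal (log2 after subtraction of each array's percentile 75) of 12 genes on all 8 arrays, 1 point per array. Red points are Cx47-deficient and blue points wild type, and open points were not well above background. Cdhr1, Sp8 and Ms4a15 are low on both naive arrays, Chchd4 on the Cx47-deficient chronic array alone (-5.25), and 5430431A17Rik is high on both chronic arrays (4.16 and 3.90).

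The wild-type pair, which shares no array with the Cx47-deficient pair but lies on the same 2 slides, gave more and larger differences. Of 24098 of these genes with a wild-type value, 4037 (16.8%) were 2-fold higher and 2254 (9.35%) 2-fold lower. Among 20266 genes detected on all 4 arrays, 1192 were 2-fold higher in the Cx47-deficient pair, and 909 of these were also 2-fold higher in the wild type. That is 76.3% of the Cx47-deficient genes and 32.2% of the 2819 of the wild type. Of 436 lower genes 309 were shared, 70.9% of the Cx47-deficient and 14.5% of the 2126 wild-type genes. No gene was lower in the Cx47-deficient and higher in the wild-type pair, and 7 were higher in the Cx47-deficient and lower in the wild-type pair. Across these genes Pearson's r was 0.71 and Spearman's rho 0.69, a description in which the pairs share both slides and the genes are not independent replicates.

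Genes far higher in the Cx47-deficient than in the wild-type difference included the neuropeptide gene Trh, at -2.00 naive and 1.01 chronic against 0.54 and 0.23 in the wild type. On the other side stood Ltf, the iron-binding lactoferrin of neutrophil granules and secretions, at -5.28 and -4.09 against -4.80 and 0.27. The glutamate receptor subunit Grin2a stood at 0.53 and 1.80 against -1.39 and 2.52 by its brightest probe. Its 2 other probes showed little gap between genotypes, with 0.71 against 0.57 and 0.69 against 0.81. Dsg1c, Gm16982, Duox2, 1700018B24Rik and 9530091C08Rik were 2-fold higher in the Cx47-deficient pair too, with differences of 1.08 to 1.25, but their wild-type differences were 3.78 to 4.05. The genotypes stood apart mainly on the naive arrays, at -1.70 to -0.47 in the Cx47-deficient and -4.53 to -2.71 in the wild-type mice. On the chronic arrays these genes stood at -0.57 to 0.77 and -0.61 to 1.15. Each of these differences of differences rests on 4 single arrays and was not tested.

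**Figure D5:**
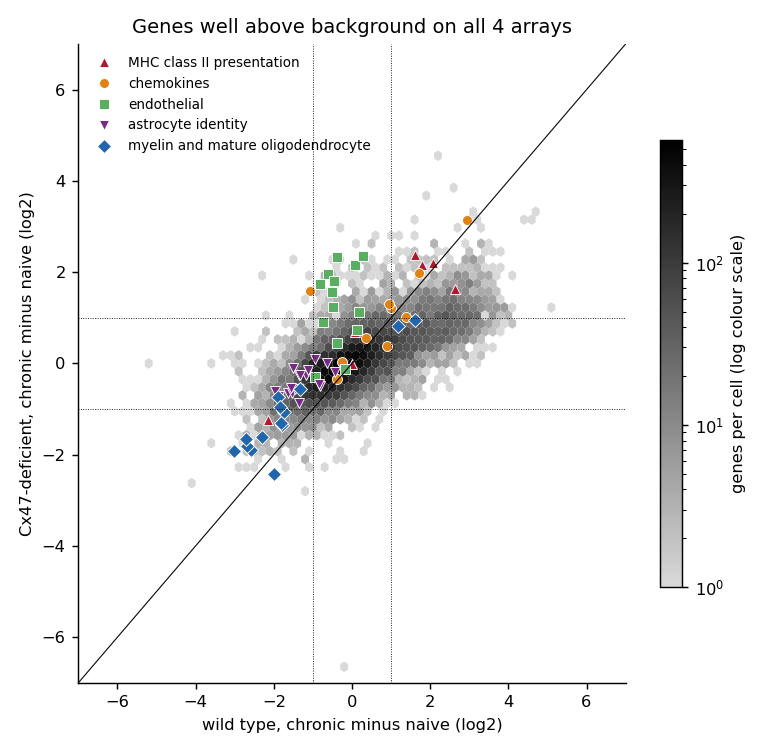
Chronic EAE minus naive (log2) in the wild type (horizontal) and in Cx47-deficient mice (vertical) for 20266 genes detected on all 4 arrays. Grey shading counts genes per cell on a log colour scale, the line marks equal differences, dotted lines mark 2-fold, and coloured points are members of 5 gene lists. Myelin genes lie mostly at the lower left and MHC class II genes mostly at the upper right, while endothelial genes lie above the line.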

How the data were processed

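The deposited scanner files give spot intensity. The software was Agilent Feature Extraction 10.7.1.1 and probe positions are on mm9, per the file headers. The submitters' processing notes name version 9.5.1.1, and the difference was not resolved. The processed signal used here is an intensity from which the software had subtracted background, per the file headers. Flags for outliers, saturation and detection are other deposited columns, taken as the authors gave them. The authors' deposited value table holds linear intensity with the same median in each column (50.2), quantile normalized as far as its values show, and served as an alternative. There were 0 columns of samples that could not be assigned.

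Per the labels' protocols, TRIzol and columns served for RNA extraction and a low-input Cy3 kit for labelling. Each array held 62976 spots. Outlier spots (38 to 73 an array) and control spots were left out, spots of a probe were averaged, log2 was taken and each array's percentile 75 subtracted. A gene was read from its kept probe of highest mean signal over the 8 arrays. Symbols came from RefSeq (33903 probes by accession, 9458 by symbol, 488 by synonym), and 12756 probes carry the array design's name. Detected means well above background. Alternatives used limma 3.58.1 in R 4.3.3 (normexp with offset 50, quantile, cyclic loess), and Python 3.11.15 with pandas 2.3.3 and numpy 2.4.6 did the rest. The steps were checked on simulated data. The self-test is not quoted.

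Differences were counted at 2-fold. No test was made, since each group had 1 array. Named genes were the 15 largest on each side that were 2-fold in the same direction with the main values, normexp, quantile and the authors' table, the 8 largest on each side of the Cx47-deficient minus the wild-type difference, up to 5 members of largest difference per list, and always, among others, Gfap, Gja1, Gjb6, Aqp4, Mbp and Il6. Some genes that this rule chose, and the signal of the targeted gene, are not reported here. Other list members were named for their role after their values were seen. The members, the 38 lists and this rule were chosen with earlier results of these data known. Promoter windows came from RefSeq (GRCm38.p6).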

Additional observations from a re-analysis of the deposited data

Results flagged for a closer look

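Genes were singled out where the chronic EAE minus naive difference was 2-fold or more in both genotypes but in opposite directions. With 1 array a group the difference between genotypes was not tested. The 5 given here were each higher in the Cx47-deficient pair and lower in the wild-type pair. Htr5b, a serotonin receptor, differed by 1.84 in the Cx47-deficient mice and by -2.29 in the wild type. Slc6a4, the serotonin transporter, differed by at least 1.19 and, as a bound, -3.59 by its brightest probe, but its other kept probe lay higher on both chronic arrays (-4.67 and -3.92) than on the naive arrays, where it was not well above background, so the opposite directions rest on 1 probe. Tph2, the enzyme of neuronal serotonin synthesis, differed by at least 1.07 and, as a bound, -3.26. Tmem212, listed with ependymal cells, differed by at least 1.53 and, as a bound, -2.30. Saa2, an acute phase protein, differed by at least 2.21 and by -1.22.

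On the naive arrays Slc6a4, Tph2 and Tmem212 were not well above background in the Cx47-deficient mice and stood at -2.23, -2.56 and -3.51 in the wild type. On the 4 arrays of EAE with or without IGU, Slc6a4 stood between -3.63 and -2.14 and Tph2 between -3.38 and -2.33.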

How the results depend on the processing

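The 2184 higher and 511 lower genes became 515 and 202 after normexp background correction and 627 and 90 at 3-fold. The 511 lower genes became 956 with median centring, 965 with quantile normalization, 932 in the authors' deposited values and 1580 when probes were counted in place of genes. The share of higher among the 2-fold genes was 81.0%, and 71.8% (normexp), 61.8% (median centring), 65.4% (quantile), 65.6% (the authors' values) or 67.3% (probes) otherwise. The median of all genes moved from 0.05 to -0.08 with median centring. The medians of MHC class II, chemokines, GTPases, endothelial, myelin and Hox genes kept their sign under each alternative run. Their lowest values toward 0 were 1.02, 0.52, 0.72 and 0.63 for the first 4, all after normexp, and -1.14 and -0.92 for myelin and Hox genes. Lists with medians near 0 did not keep theirs, among them general neuronal genes (-0.07, and 0.04 with cyclic loess). The median of disease-associated microglia was 0.48 over kept genes and -0.08 over genes detected on both arrays. The cause was not tested. Dim probes limit the counts, since 2513 genes have only a bound on the naive array. No paired analysis was possible because each group had 1 array, and no array could be left out.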
